A study of Drosophila melanogaster with 8 samples.

Results

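The sperm leucyl aminopeptidase genes of Drosophila melanogaster are S-Lap1, S-Lap2, S-Lap3, S-Lap4, S-Lap5, S-Lap7, S-Lap8 and loopin-1, which RefSeq also lists as S-Lap6. These 8 genes were taken by symbol from the BDGP6 annotation, out of 14292 genes counted, and all 12 of their annotated transcripts were summed per gene. Long-read cDNA of the wild-type strain Oregon R was counted in testes, in eyes, heads and salivary glands of males, in the same tissues of females, and in ovaries. Per the labels, the flies lived at 25 °C and were taken at an age of 5 to 7 days, and no allele or agent beyond the wild type is named; the isolation of salivary glands and ovaries is not described. The cDNA ends of qtc, a gene named for male courtship, were amplified with its own primers, so levels of every other gene describe these amplified libraries rather than the tissues. Each of the 8 groups has 1 library, so there is no replicate spread and no test between groups. All intervals given are exact, at 95%, and cover counting error only.

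Leucyl aminopeptidases of family M17 remove amino acids from the N-terminal end of peptides, with the help of metal ions. In Drosophila the family has expanded into a set of paralogs whose proteins are among the most abundant of the sperm proteome. The proteins are known to accumulate in the mitochondrial derivatives, the elongated mitochondria that run along the sperm tail, and several paralogs are known to lack residues that catalysis needs. Loopin-1 was named as an antigen of the Y chromosome loops of spermatocytes.

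The libraries held 88388 (testes) to 151408 (female salivary glands) estimated counts, of which rows named as rRNA took 1.94% to 23.9% and qtc 0.334% to 2.64%. A count of 0 allows up to 3 counts, or 19.8 to 33.9 counts per 1000000 (CPM). The testis library held 5 of 6 germline markers of the testis, with Mst98Ca at 233.5 counts, the testis tubulin gene betaTub85D at 130.2, and aly at 0. It also held 5 of 5 male accessory gland markers, at 52.2 counts or 0.0591% in all, against 0 to 2.06 counts in each other library. Of 5 markers of somatic testis cells only Fas3 was above 0 in testes, at 2 counts. The part of accessory gland cells in the S-Lap counts was not tested. Markers of the labelled tissue took 16% of male and 4.24% of female eyes, and 0.0422% (neurons) of male and 0.0236% of female heads. They took 1.3% of male and 1.65% of female salivary glands, and 15.7% of ovaries. The same ovary markers also took 8.28% of female eyes, and the eye markers 7.42% of male and 6.68% of female heads. The neuron markers took 0.02935% of male and 0.0239% of female salivary glands, so they did not set female heads apart from these. Lsp2, a larval serum protein gene, had 17135 counts in male and 18587 in female salivary glands, and 4.42 to 1378 in each other library. The stage of the salivary glands was not tested.

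The family lies on 2 chromosome arms, in loose pairs (BDGP6 coordinates). On 3L, S-Lap1 spans 8617235 to 8619474 and S-Lap2 8619888 to 8622091, both on the plus strand and 413 bases apart with no gene between. S-Lap3 spans 10465187 to 10468974 on 3L, plus strand, and S-Lap4 lies 21886 bases further on, from 10490861 to 10492934. On 2R, S-Lap5 spans 13596677 to 13598750 on the plus strand, and S-Lap7 lies at 13778124 to 13780245 on the minus strand. S-Lap8 at 16491100 to 16493233 and loopin-1 at 16534943 to 16537086, both on the plus strand of 2R, are 41709 bases apart.

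The coding parts are alike in length, at 524 (S-Lap4) to 555 (S-Lap1) codons. The introns are not alike. S-Lap4, S-Lap5 and S-Lap7 have no intron, and S-Lap3 and loopin-1 have transcripts with and without one, in both cases upstream of the coding start. S-Lap8 has 1 intron, of 79 bases, after 102 coding bases. S-Lap1 and S-Lap2, the closest neighbours, both have 2 introns within the coding part, of 57 and 62 bases in S-Lap1 and of 55 and 56 bases in S-Lap2. Coding exons 2 and 3 have the same lengths in both genes, 465 and 138 bases.

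**Figure D1:**
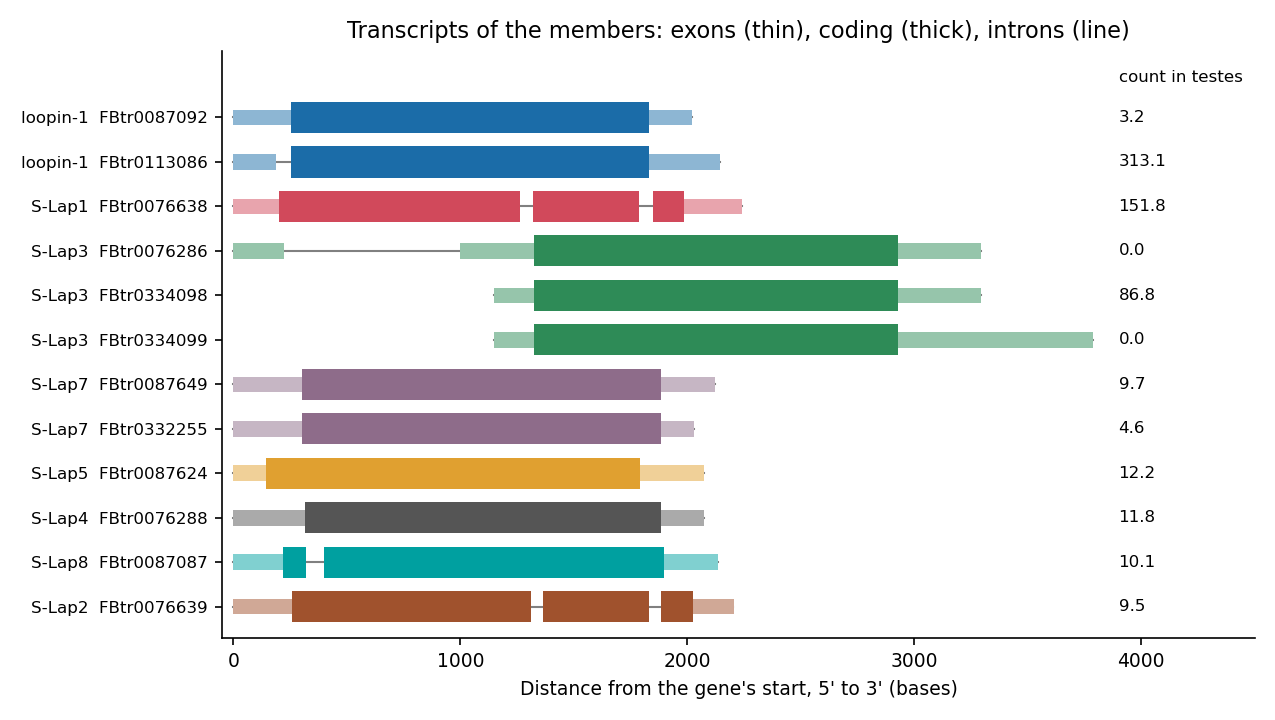
Exons (thin bars), coding parts (thick bars) and introns (lines) of the 12 annotated transcripts, against the distance from the start of the gene in bases, with the estimated count of each transcript in testes at the right. Counts fall on 1 transcript in S-Lap3 and mostly on the spliced transcript in loopin-1, at 86.8 and 313.1.

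Together the 8 genes had 612.8 estimated counts in testes (Poisson interval 565.4 to 663.5), or 0.693% of the library (binomial interval 0.64% to 0.751%) and 6933 CPM. They had 0 counts in male eyes, 3 in male heads, 1 in male salivary glands, 1 in female eyes, 12.2 in female heads, 0 in female salivary glands and 1 in ovaries. Of the 630.9 counts of the family in all libraries, 97.1% were in testes, although that library had the fewest counts. S-Lap2, S-Lap4 and S-Lap7 were at 0 in all 7 other libraries, and S-Lap1, S-Lap3, S-Lap5, S-Lap8 and loopin-1 were above 0 in at least 1 of them. S-Lap2, S-Lap4 and S-Lap7 had only 9.46, 11.8 and 14.3 counts in testes, too few for a 0 elsewhere to set them apart. The like share over all genes was not worked out. In these bulk samples, fewer cells of a type and less RNA per cell cannot be told apart.

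**Figure D2:**
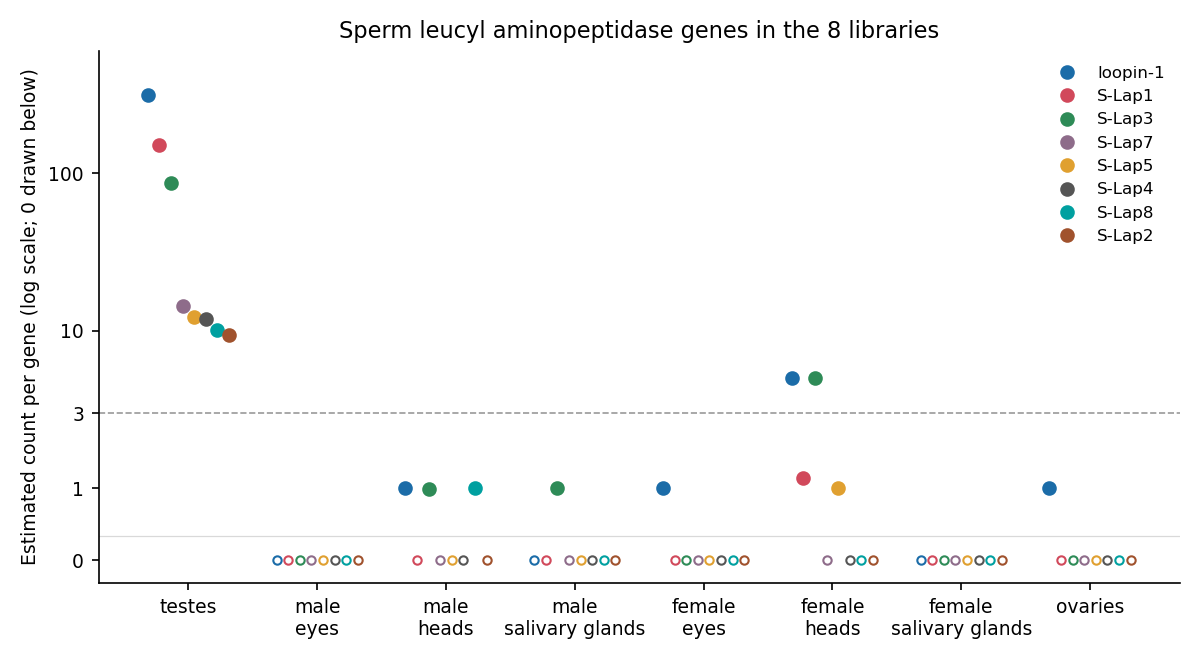
Estimated count of each member (colour) in each of the 8 libraries, on a log axis with values of 0 drawn as open circles at the bottom. The dashed line marks the 3 counts that a count of 0 allows; outside testes only loopin-1 and S-Lap3 exceed it, both in female heads.

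Within testes the members fell into 3 genes of higher and 5 of lower level. The gene loopin-1 had 316.3 counts in testes (282.1 to 352.8), 1 in male heads, 1 in female eyes, 5 in female heads, 1 in ovaries and 0 in male eyes and both salivary gland libraries. It ranked 45th by count among 4744 genes detected in testes and took 51.6% of the family's counts there (47.5% to 55.6%). S-Lap1 had 151.8 counts in testes (128.8 to 178.2), 1.16 in female heads and 0 in the 6 remaining libraries. S-Lap3 had 86.8 in testes, 1 in male heads, 1 in male salivary glands, 5 in female heads and 0 elsewhere. These 3 genes, each from a different loose pair, held 90.55% of the family's counts in testes (87.9% to 92.7%).

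The other 5 members shared 57.9 counts in testes. S-Lap7 had 14.3 counts (7.65 to 23.5) and S-Lap5 12.2, S-Lap4 11.8, S-Lap8 10.1 and S-Lap2 9.46 (4.12 to 17.1). Outside testes S-Lap5 had 1 count in female heads and S-Lap8 1 in male heads. Counts as low as these leave the order of the 5 undecided.

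Levels were compared between members per length, as the authors' TPM (transcripts per 1000000) in testes. On that scale loopin-1 was at 1447 TPM, S-Lap1 at 678.8 and S-Lap3 at 382.8, and the other 5 were at 42.9 (S-Lap2) to 65 (S-Lap7). The level of loopin-1 was 2.13 times that of S-Lap1 (counting interval 1.75 to 2.6), which was 1.77 times that of S-Lap3 (1.35 to 2.33). S-Lap3 in turn was at 5.89 times S-Lap7 (3.41 to 11.5). Below it no neighbours in the order were apart by more than counting error, since every interval from S-Lap7 down to S-Lap2 included 1. Even the highest and the lowest of these 5, S-Lap7 and S-Lap2, had a ratio of 1.51 with an interval of 0.628 to 4.08.

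**Figure D3:**
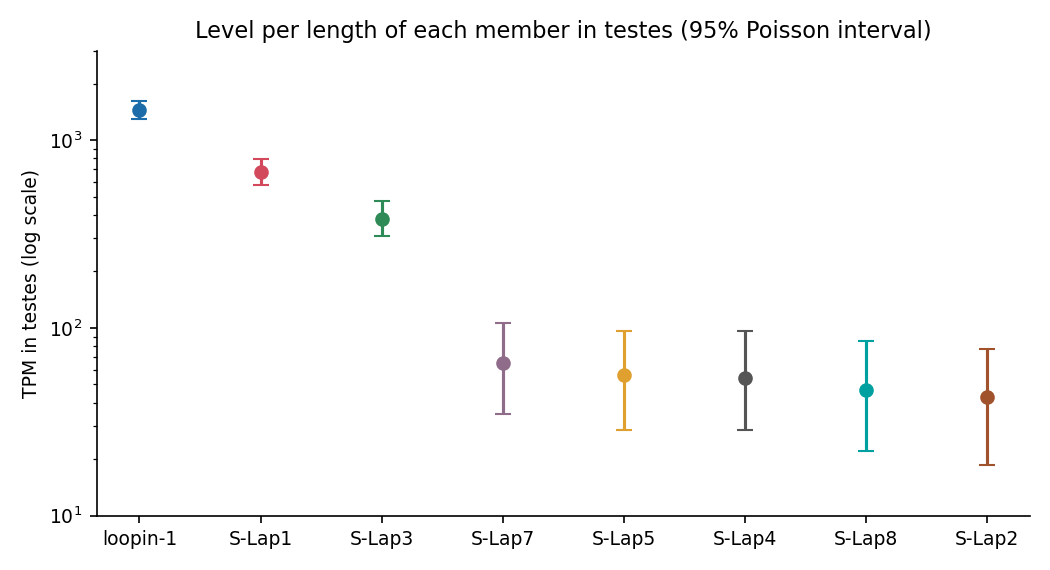
Level per length of each member in testes, in TPM on a log axis, with 95% Poisson intervals of the counts. The intervals of loopin-1, S-Lap1 and S-Lap3 are apart from those of the other 5 genes, which overlap each other.

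Members paired by position were mostly not at like levels, and only S-Lap1 and S-Lap2 have no gene between them. S-Lap1 was at 15.8 times the TPM of S-Lap2 (8.54 to 37.1), which starts 413 bases downstream of its end. S-Lap3 was at 7.07 times S-Lap4 (3.8 to 14), with 1 gene between them. Loopin-1 was at 30.9 times S-Lap8 (16.7 to 65.7), with 2 genes between them. S-Lap5 and S-Lap7 lie farthest apart, at 179373 bases with 9 genes between them. S-Lap7 was at 1.16 times S-Lap5 (0.496 to 2.73), which is within counting error.

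The genes around the family were counted as well. Of all 14292 genes counted, 4744 were above 0 in testes and 953 reached 10 counts. At shares near those, 12 of 16 overlapping or nearest other genes were at 0 in testes and 1 reached 10 counts there. That gene is knon (knotted onions), next to S-Lap8 on the opposite strand, known for its part in shaping the mitochondrial derivative of the spermatid. It had 21.5 counts in testes and 0 in every other library. CG6282, which ends 160 bases before S-Lap1, showed the opposite distribution, with 0 counts in testes against 26 in male eyes, 33.2 in male heads and 24.8 in female heads.

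Overlapping genes can take or give reads, since no source used here states whether counting used the strand. S-Lap4 lies within an intron of Rbfox1 on the same strand, and S-Lap7 within an intron of Cpr50Ca on the opposite strand. The last 53 bases of S-Lap2 overlap exons of GAPsec on the opposite strand. All 3 of these overlapping genes were at 0 counts in testes. How far reads of one S-Lap gene were assigned to another was not tested, and counts of such paralogs are uncertain.

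Among the 3 genes with more than 1 annotated transcript, loopin-1 was counted almost wholly as its spliced transcript FBtr0113086. It took 313.1 of 316.3 counts in testes, or 99% (97.2% to 99.8%). FBtr0087092, which took 3.17 counts, keeps the 66-base intron before the coding start and also ends earlier. The 99% is therefore not a share of splicing alone. In female heads, male heads, female eyes and ovaries every loopin-1 count was on FBtr0113086. All 86.8 counts of S-Lap3 in testes were on the intronless FBtr0334098 of 2146 bases, with 0 on FBtr0334099, which ends later, and 0 on FBtr0076286, which starts upstream. The 1 count of S-Lap3 in male heads was on FBtr0076286, whereas the 5 in female heads and the 1 in male salivary glands were on FBtr0334098. S-Lap7 was split as 9.67 and 4.64 counts between FBtr0087649 and FBtr0332255, which share their start and differ in where they end. Because the transcripts of a gene share most of their bases, these shares rest on how the authors' software placed each read.

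Testes were first set against ovaries, the other gonad. A gene was counted as higher where its CPM was at least 4-fold higher and it had at least 10 counts in testes, with a library at 0 set to 3 counts. By that rule 7 of the 7 members with 10 counts in testes were higher in testes, and none was lower, whereas 58.8% of the 953 genes with 10 counts in testes were higher by the same rule. Over the 1660 genes with 10 counts in either gonad, 33.7% were higher and 24.8% lower in testes. S-Lap2, at 9.46 counts in testes against 0 in ovaries, fell below the minimum count. Since the members passed the count minimum only through testes, and any gene at 10 counts in testes and 0 in ovaries reaches 5.69-fold, the count of 7 is a description of the libraries. Of the 953 genes, 358 were at 0 in ovaries.

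The folds differed widely among the members. Loopin-1 had 3578 CPM in testes and 6.68 CPM in ovaries, a ratio of 536 that rests on 1 count in ovaries (counting interval 96.1 to 21363). With ovaries at 0 set to 3 counts, S-Lap1 was at least 86.4-fold and S-Lap3 at least 49.4-fold higher in testes than in ovaries. On the same floor the folds were 8.14 for S-Lap7, 6.94 for S-Lap5, 6.71 for S-Lap4, 5.75 for S-Lap8 and 5.38 for S-Lap2. These values leave out the counting error in testes. The exact lower limit of the ratio, which covers both libraries, was 69.5 for S-Lap1, 39.4 for S-Lap3, 5.66 for S-Lap7, 4.74 for S-Lap5 and S-Lap4, 3.83 for S-Lap8 and 3.37 for S-Lap2, so that the limits of S-Lap8 and S-Lap2 lie below 4-fold. With DESeq2 size factors in place of library totals, every ratio of testes over ovaries was 1.56 times as large. The median log2 of testes over ovaries was 3.02 for the 7 members, with genes at 0 at their bound, and 2.65 for the 953 genes. For S-Lap1, S-Lap3 and the 5 lower members, all at 0 in ovaries, the depth of the libraries, not a measured absence, sets the bound.

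**Figure D4:**
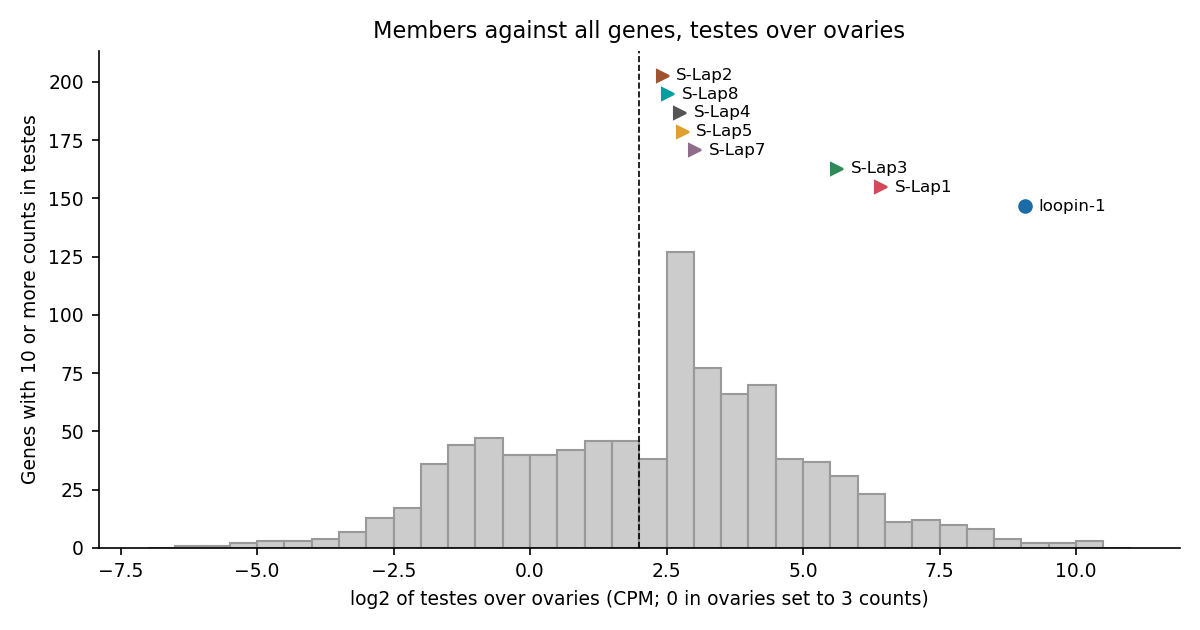
Histogram of the log2 ratio of testes over ovaries for the 953 genes with at least 10 counts in testes, with a library at 0 set to 3 counts, and the 8 members above it; S-Lap2, at 9.46 counts, is drawn but not in the histogram. Triangles are lower bounds, the circle is a ratio, and the dashed line is the 4-fold limit; S-Lap3, S-Lap1 and loopin-1 lie to the right, at 5.62, 6.43 and 9.07.

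Testes were then set against the somatic tissues of males, with the stage of the salivary glands untested. Against male eyes, heads and salivary glands summed, 7 of 7 members with 10 counts in testes were higher in testes, beside 57.8% of the 953 genes. The family as a whole was at 6933 CPM in testes and 10.2 CPM in the summed male tissues, on 612.8 against 3.99 counts, a ratio of 683 (265 to 2510). With a floor of 3 counts over the summed libraries, S-Lap1 was at least 225-fold, S-Lap7 at least 21.2-fold, S-Lap5 at least 18.1-fold, S-Lap4 at least 17.5-fold and S-Lap2 at least 14-fold higher in testes. The exact lower limits of these ratios were 181, 14.8, 12.4, 12.4 and 8.78 in the same order of genes. Loopin-1 (316.3 against 1 count) was at a ratio of 1407 (251 to 55703), S-Lap3 (86.8 against 1.99) at 194 (52 to 1623) and S-Lap8 (10.1 against 1) at 45 (6.33 to 1931).

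By single tissue, the same 7 members were higher in testes than in male eyes (68.8% of the 953 genes), male heads (58.6%) and male salivary glands (61.3%). For S-Lap8 the exact lower limit lay below 4-fold each time, at 3.185 (male eyes), 2.18 (male heads) and 3.36 (male salivary glands). Against male eyes the limits of S-Lap4 and S-Lap5 did so too, at 3.95 each. The family ratio was at least 290 over male eyes, where no member was counted, and was 313 over male heads (106 to 1519) and 918 over male salivary glands (164 to 36350). The comparisons share the testis library and are not independent of each other.

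A measure over all libraries was the share of testes in the CPM summed over the 8 libraries. It was 100% for S-Lap2, S-Lap4 and S-Lap7, 99.5% for S-Lap1, 98.4% for loopin-1, 94.9% for S-Lap3, 94.8% for S-Lap5 and 93.9% for S-Lap8. The shares of S-Lap5 and S-Lap8 each rest on 1 count outside testes, and those at 100% on 9.46 to 14.3 counts in testes. Counts this low leave the order of these 5 members by share undecided. Of the 953 genes with 10 counts in testes, 29.4% had a share of 90% or more, a limit chosen after the values were seen, and the median share was 45.8%. The 7 members with 10 counts in testes were all at 90% or more.

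The library besides testes with the most S-Lap counts was that of female heads, at 12.2 counts (6.2 to 21) or 91.1 CPM, against 3 counts (0.619 to 8.77) or 22.1 CPM in male heads. The ratio of female to male heads was 4.12, with a counting interval of 1.09 to 22.4 and no replicate behind it. Those 12.2 counts were 5 of loopin-1, 5 of S-Lap3, 1.16 of S-Lap1 and 1 of S-Lap5. S-Lap3 took 14.2% of the family's counts in testes and 41.1% in female heads (15.2% to 72.3%). Loopin-1 took 51.6% in testes and 41.1% in female heads (15.2% to 72.3%). The family in testes was at 76.1 times its CPM in female heads (43.8 to 150).

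Markers of the testis germline were also counted in female heads. Of the 6 markers, Mst98Ca, with 233.5 counts in testes, had 457.9 in female heads, and betaTub85D, with 130.2 in testes, had 19.9, while Mst87F, dj, aly and bam were at 0 in female heads. The list summed to 380.8 counts in testes, 477.8 in female heads and 0 to 3 in each of the 6 remaining libraries. The part of testis RNA in the S-Lap counts of female heads was not tested.

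**Figure D5:**
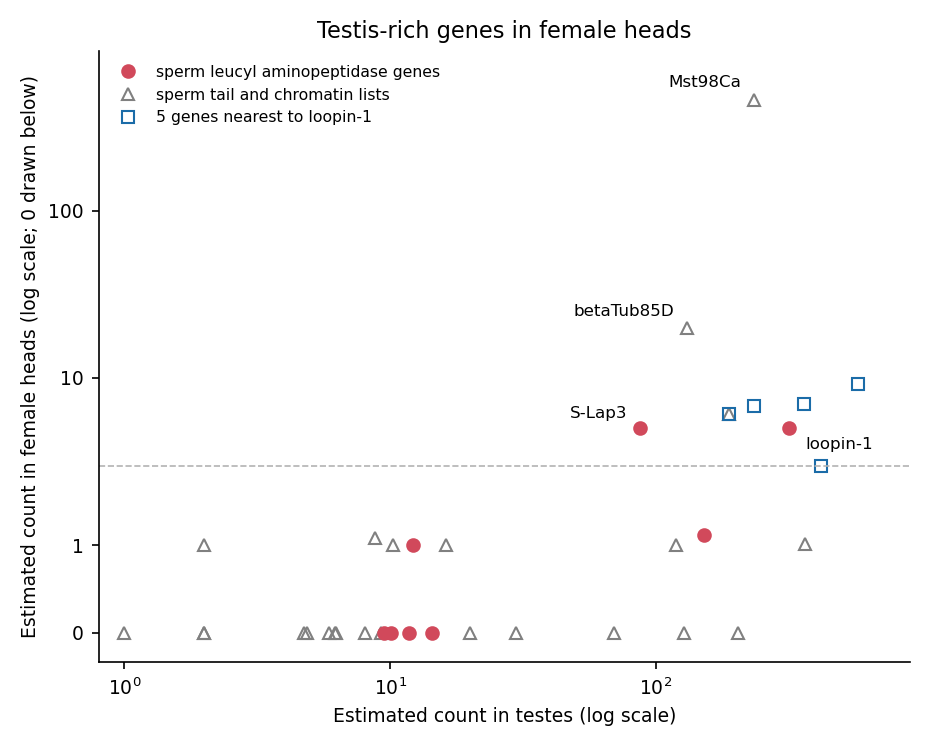
Estimated count in female heads against that in testes, both on log axes with 0 drawn at the bottom, for the 8 members, the genes of the sperm tail and sperm chromatin lists above 0 in testes, and the 5 genes nearest to loopin-1. Loopin-1 and S-Lap3 lie at 5 counts in female heads, and Mst98Ca stands apart at 457.9. The nearest genes, at 3 to 9.22, were chosen by profiles that include female heads.

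Other genes of sperm were counted for comparison, from lists that were partly known to be high in testes. Of 21 genes in the list of sperm tail and mitochondrial derivative genes, 8 had 10 counts in either gonad and 13 did not. These 8 were all higher in testes than in ovaries, beside 58.8% of the 953 genes and 33.7% of the 1660 genes above. None was lower. All 8 passed the count minimum through testes. Its most counted genes were Mst98Ca at 233.5 counts, ocn at 203.2 and betaTub85D at 130.2 in testes, each at 0 in ovaries. Of 7 sperm chromatin genes, 4 had 10 counts in either gonad. All 4 were higher in testes and none lower, beside the same background, led by tHMG1 at 364.6 counts in testes against 0 in ovaries. Of the 15 spermatocyte regulators none had 10 counts in either gonad, so none could be called. Of them 5 were above 0 in testes, with topi and twe at 6 counts each. The summed counts of S-Lap genes in testes, 612.8, stand beside 871.7 for the sperm tail list, 700.8 for the sperm chromatin list and 19 for the spermatocyte regulators.

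Both M17 relatives outside the sperm set were at low counts, and their difference from the S-Lap genes was not tested. The gene grsm (granny-smith) had 6.21 counts in testes, 1 in male heads, 1 in male salivary glands, 1 in female eyes, 1 in female heads, 3 in female salivary glands and 0 in male eyes and ovaries. It was at least 3.53-fold higher in testes than in ovaries on the floor of 3 counts, with a lower limit of 2.01, and lay below the minimum count. Dip-B, a dipeptidase gene, had 2 counts in testes and 13 in ovaries, a ratio of 0.263 (0.0288 to 1.16), and 0 to 3 in the somatic libraries. Of 4 other aminopeptidase genes, Psa, ApepP, Dip-C and SP1029, none had 10 counts in either gonad, so none could be called. They had 0 to 7.01 counts in testes, and ApepP was at 21.6 counts in male and 13.1 in female salivary glands.

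Likeness to loopin-1, the most counted member, was measured as the Euclidean distance between profiles of log2(CPM + 20) over the 8 libraries. Among 946 other genes with 10 counts in testes the nearest were CG31538 (distance 0.876), CG1638 (1.047), CG31231 (1.055), Tpl94D (1.075) and CG31740 (1.14). Tpl94D encodes a transition protein of sperm chromatin. They had 188.1 (Tpl94D) to 573.7 (CG31740) counts in testes, 0 in ovaries, 3 (CG31231) to 9.22 (CG31740) in female heads and under 3 in each other library. S-Lap1 was 16th and S-Lap3 43rd nearest of 952 genes once members were included, at distances of 1.64 and 1.99, and the members of low count stood at 331st (S-Lap7) to 426th (S-Lap8). The measure depends on the level in testes as well as on the shape of the profile, and libraries and depth are shared by all genes.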

How the data were processed

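The authors deposited estimated counts per transcript, which need not be whole, and TPM, corrected for length, for 31089 transcripts in each of the 8 libraries, per the file headers. Whole-number counts of total and filtered reads per library (262332 to 334257 total, 90780 to 156627 filtered) come from a second deposited table. The submitters' processing notes list Minimap2, Salmon, edgeR and the build BDGP6 with no version or role, and no source used here states the read filter.

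Of the transcript IDs looked up in the BDGP6 annotation of Ensembl release 115, 31048 were found and 41 were not and were left out (0.0938% to 0.535% of a library). Estimated counts were summed per gene, and rounded to whole numbers only for intervals and for size factors. CPM used library totals. With 1 library a group nothing was tested: counts carry exact Poisson intervals, shares exact binomial (Clopper-Pearson) intervals and ratios exact conditional binomial intervals at 95% (scipy 1.17.1), and a library at 0 was set to 3 counts. Amplified reads carry no molecular identifiers and can copy 1 molecule, so these cover counting error only. The call rule was tested on simulated data. edgeR 4.0.16 (TMM) and DESeq2 1.42.0 in R 4.3.3 gave alternative scalings. Named genes were all members, the 5 nearest profiles, the 3 highest genes of the sperm tail list and the M17 relatives; other genes were named after their values were seen. Members and lists were chosen with earlier results of these data known. Sequence identity between members was not analysed here.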

Additional observations from a re-analysis of the deposited data

Results flagged for a closer look

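A signal was seen in female heads, a library outside the comparisons of testes with ovaries and with male tissues. The family had 12.2 estimated counts there, S-Lap3 5 and loopin-1 5.003, all above the 3 counts that a count of 0 allows, and there are no control samples for it. Among the 63 other genes with at least 100 counts in testes and 0 in ovaries, a rule chosen after seeing the data, 39 were above 0 in female heads and 30 above 3 counts, with a median of 2.44 counts. In the 5 other somatic libraries 9 (female salivary glands) to 26 (male eyes) of these 63 genes were above 0, each with a median of 0. The median gene of the 63 stood in female heads at 0.557% of its CPM in testes. Summed, the 63 genes stood at 2.88%, and at 1.59% without Mst98Ca, which held 457.9 of their 1008.7 counts there, beside 1.31% for the S-Lap family. In the other 5 somatic libraries the 63 genes stood at 0.126% to 0.331% and the family at 0 to 0.319%. The source of these counts was not tested.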

How the results depend on the processing

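No paired analysis was possible because each group has 1 library, and for the same reason no replicate could be left out. The family level in testes, 6933 CPM with library totals, was 5869 with TMM and 7831 with DESeq2 size factors, and 2774 on the length-corrected TPM scale; without rRNA rows or qtc it stayed within its counting interval. The 7 members higher in testes than in ovaries became 3 (loopin-1, S-Lap1 and S-Lap3) at a limit of 10-fold, where the depth caps the bound of the others and 36.5% of the 953 genes passed. The count was 7 or 8 under every other setting tried, S-Lap2 being added with a minimum of 5 counts or none, while the share of all genes with the minimum count that passed was between 17% (no minimum) and 68.4% (2-fold). Against the summed male tissues it was 7 or 8 throughout, with 34% (no minimum) to 69.6% (2-fold) of genes passing. The scalings shifted log2 of testes over ovaries by 0.16 (TMM) and 0.64 (DESeq2), and of testes over the summed male tissues by -0.30 (TMM), -0.13 (without rRNA rows) and 0.08 (DESeq2). The 5 members detected outside testes became 2, loopin-1 and S-Lap3, at 3 counts or more. No such share over all genes was worked out. Depth limits the 5 members with fewer than 20 counts in testes: their order, and any fold beyond their bounds, was not detectable.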

Other observations

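The M17 relative grsm, a gene outside the sperm set, was counted on different transcripts in testes and elsewhere. In testes all 6.21 counts were on FBtr0344095 (2234 bases), which was at 0 in the 7 other libraries. The 1 to 3 counts of each of the 5 other libraries in which grsm was detected were all on FBtr0082730 (1957 bases), which was at 0 in testes. For Dip-B, the 2 counts of testes and the 13 of ovaries were on FBtr0082831, as were the 2 of male salivary glands, and those of male eyes, female eyes and female salivary glands, at 1 to 3 each, on FBtr0345229. These counts are too few to give the share of a transcript closely: the interval of FBtr0344095 in testes is 54.1% to 100%.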
